A study of Monodelphis domestica with 6 samples.

Results

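The expression of 9 genes of the Hippo pathway and its TEAD transcription factors was followed from opossum neonatal skin fibroblasts (neoSFs) to the induced pluripotent stem cells made from them (monoiPSCs). The genes were taken by symbol from the count and normalized tables of 35665 genes, and are YAP1, WWTR1, TEAD1, TEAD3, TEAD4, LATS1, LATS2, AMOTL2 and VGLL3. TEAD2 was not analysed here, as no row carries its symbol. The Hippo pathway is a kinase cascade in which LATS1 and LATS2 phosphorylate the coactivators YAP1 and TAZ, the protein of WWTR1, and so keep them out of the nucleus. Unphosphorylated YAP1 and TAZ bind TEAD factors on DNA and switch on genes of growth and matrix attachment, and the cascade responds to cell density, cell shape and stiffness of the substrate. In the preimplantation mouse embryo, TEAD4 with nuclear YAP1 is known for its role in the trophectoderm, while YAP1 is kept out of the nucleus in the inner cells.

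The study reprogrammed fibroblasts of the grey short-tailed opossum, Monodelphis domestica, and sequenced the RNA of the cells before and after. The neoSFs were primary, wild-type cultures from the back skin of 10-day-old female pups of the inbred strains FD2M1 and LSD1, grown for 3 to 4 passages in serum medium, with 1 library per strain. The monoiPSCs were made by nucleofection of OriP/EBNA episomal plasmids carrying human OCT4, KLF4, SOX2, cMYC, NANOG and LIN28, with the plasmids pCE-mp53DD and pCXB-EBNA1. The cells were kept free of feeder cells on Matrigel with human LIF, bFGF and the ROCK inhibitor Y27632. They were sequenced as the FD2M1 line and the LSD1 line, each at passage 15 and passage 25, so that the 4 monoiPSC libraries come from 2 lines. Nothing in the labels ties the libraries to separate animals beyond the strain, and p-values measure the spread between these libraries alone. The neoSFs were read as single-end reads in-house and the monoiPSCs as longer paired-end reads by a service, so sequencing platform, culture medium and cell type cannot be told apart.

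The total count was 14278794 and 16982978 in the neoSF libraries and between 28684754 and 35564261 in the monoiPSC libraries, and counting error is small for all 9 genes, of which none was at or below 3 counts in any library. All 11 tested fibroblast marker genes were lower in monoiPSCs, 10 of them past the thresholds given below, with a summed normalized read count (NRC) of 1635522 and 1783111 in neoSFs and 13216 to 18220 in monoiPSCs. All 9 tested pluripotency markers were higher in monoiPSCs. The library of LSD1 monoiPSCs at passage 25 stood apart from the other monoiPSCs by its skeletal muscle genes, whose summed NRC was 17536 there and 3902, 6522 and 2055 in the others. The same sum was 17649 and 21814 in the neoSFs, where ACTC1 made up most of it, at 16344 and 21468. Keratinocyte markers summed to an NRC of 58.5 and 156 in neoSFs and to 0 in all monoiPSC libraries but FD2M1 at passage 15, which had 6.73. Melanocyte markers summed to 257 and 407 in neoSFs. In monoiPSCs they summed to 5962 (FD2M1) and 15571 (LSD1) at passage 15 and to 4604 and 8101 at passage 25. Endothelial markers summed to 237 and 59.1 in neoSFs and to 495 to 728 in monoiPSCs. Of the 5 melanocyte and 6 endothelial genes with a row, 2 of each were tested. In both lists, 1 tested gene was higher in monoiPSCs past the thresholds given below. The other was lower and did not pass them, so these sums do not show a shared rise of the markers. The part of such cells in the values of the 9 genes was not tested. In bulk RNA, fewer cells of a type and less RNA per cell cannot be told apart. Differentially expressed (DE) genes were those that differed 2-fold or more with an edgeR adjusted p (quasi-likelihood test, Benjamini-Hochberg over 13072 genes) no higher than 0.05. By this call, 45.9% of all genes tested were DE, 24.3% higher and 21.6% lower in monoiPSCs. With scaling by total count alone, 4786 genes were higher and 1931 lower, in place of 3176 and 2824, and the median log2 fold change of all genes moved from 0.08 to 0.61.

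Of the 9 genes, 5 fell in monoiPSCs (VGLL3, AMOTL2, WWTR1, LATS2 and TEAD1) and 1 rose (TEAD4), beside 21.6% and 24.3% of all genes tested. The falls ranged from 3.05-fold for TEAD1 to 36.6-fold for VGLL3, and the rise of TEAD4 was 2.17-fold. LATS1 and TEAD3 were lower with an edgeR adjusted p under the threshold, but by less than 2-fold. YAP1 did not pass the test. The median log2 fold change was -1.61 for the 9 genes and 0.08 for all genes tested. The 9 genes were chosen with earlier results of these data known, so their shares beside those of all genes are descriptions. The groups did not overlap for 8 of the 9 genes, against 73.2% of all genes tested, and 8 of 9 had an adjusted p within the threshold, against 62.2% of all genes. NRC values below are given in the order FD2M1 and LSD1 for neoSFs, and in the order FD2M1 at passage 15, LSD1 at passage 15, FD2M1 at passage 25 and LSD1 at passage 25 for monoiPSCs.

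**Figure D1:**
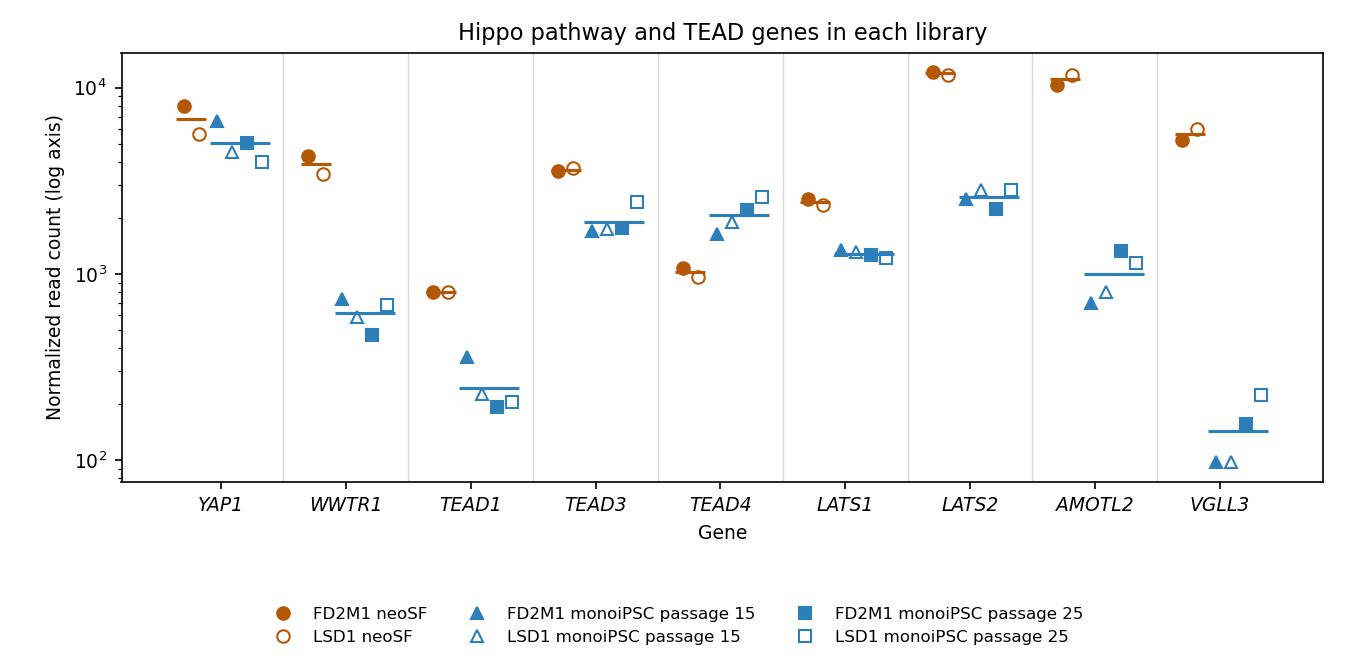
NRC of each gene (log axis) in the 2 neoSF libraries (orange) and the 4 monoiPSC libraries (blue), with filled symbols for FD2M1, open symbols for LSD1, triangles for passage 15, squares for passage 25 and a bar at each group mean. The blue symbols lie below the orange ones for 7 genes, above them for TEAD4, and among them for YAP1. Heights of different genes are not comparable, since the counts are not divided by transcript length.

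Of the coactivators, WWTR1 fell and YAP1 did not pass the test. YAP1 (gene 100010658, on MonDom5 chromosome 4) was measured at an NRC of 7994 and 5625 in neoSFs and of 6621, 4512, 5037 and 4008 in monoiPSCs. The groups overlapped, since FD2M1 monoiPSCs at passage 15 lay between the neoSF libraries. Within each strain every monoiPSC library was below its own neoSFs, by 0.27 to 0.67 on the log2 scale. The log2 fold change of YAP1 was -0.33 (SE 0.24, 95% interval -0.90 to 0.23, edgeR adjusted p = 0.260). In this fit the interval held falls and rises of less than 2-fold. With 1 library left out, the log2 fold change was -0.56 to -0.07. With total count scaling its sign turned, to 0.19 with an edgeR adjusted p of 0.506.

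WWTR1 (gene 100012240, chromosome 7), which encodes TAZ, had an NRC of 4319.7 and 3464 in neoSFs and of 733, 592, 472 and 685 in monoiPSCs. Every monoiPSC library was far below both neoSF libraries. It fell 5.86-fold (log2 fold change -2.55, SE 0.20, edgeR adjusted p = 6.1e-05). The log2 ratio of YAP1 to WWTR1 within a library does not depend on how libraries are scaled, and it exceeded its neoSF mean by 2.38, 2.14, 2.62 and 1.75 in the monoiPSC libraries. The mean shift was 2.22, or 4.67-fold in favour of YAP1. The gene pairs compared this way were chosen after the values were seen, so their shifts are descriptions and carry no test. With 1 library left out, the mean shift was 2.09 to 2.38.

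Among the TEAD factors, which bind DNA and recruit the coactivators, TEAD1 fell and TEAD4 rose. TEAD1 (gene 100030213, chromosome 5) had an NRC of 800.2 and 802 in neoSFs and of 358, 227, 193 and 206 in monoiPSCs. The neoSF libraries were nearly equal, and FD2M1 monoiPSCs at passage 15 were the highest of the other 4 without reaching them. TEAD1 fell 3.05-fold (log2 fold change -1.61, SE 0.28, edgeR adjusted p = 0.0018).

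TEAD4 (gene 100020113, chromosome 8) had an NRC of 1080.1 and 966 in neoSFs and of 1640.2, 1911, 2196 and 2577 in monoiPSCs. All monoiPSC libraries were above both neoSF libraries, and LSD1 at passage 25, the monoiPSC library with the highest sum of muscle genes, was the highest. Against the neoSFs of their own strain, the other 3 monoiPSC libraries were higher by 0.60, 0.98 and 1.02 on the log2 scale. The log2 fold change of 1.12 (SE 0.21, 95% interval 0.63 to 1.60, edgeR adjusted p = 0.0026) lay close to the 2-fold limit. Without LSD1 monoiPSCs at passage 25 it was 0.99 with an edgeR adjusted p of 0.0039, which is under 2-fold and no longer a DE call. The part of the muscle RNA of that library in the TEAD4 value was not tested.

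TEAD3 (gene 100028466, chromosome 2) had an NRC of 3565 and 3699 in neoSFs and of 1699, 1742, 1762 and 2451 in monoiPSCs. LSD1 at passage 25 was again the highest, and the other 3 monoiPSC libraries were close to each other. TEAD3 was 1.78-fold lower in monoiPSCs (log2 fold change -0.83, SE 0.18, edgeR adjusted p = 0.0055) and was not DE. In the edgeR fit it remained under 2-fold without LSD1 monoiPSCs at passage 25, at -0.99. On the deposited log2 values, the other 3 monoiPSC libraries differed from their own-strain neoSFs by -1.07, -1.09 and -1.02, just past 2-fold. With total count scaling the TEAD3 value of -0.31 missed the threshold, at an edgeR adjusted p of 0.152.

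The ratios of the TEAD transcripts within libraries were also set side by side. The log2 ratio of TEAD4 to TEAD1 exceeded its neoSF mean by 1.85, 2.73, 3.16 and 3.30 in the monoiPSC libraries, a mean shift of 2.76 or 6.76-fold. For TEAD4 against TEAD3 the mean shift was 1.95, or 3.86-fold, and the 4 libraries lay between 1.78 and 2.15. The ratio of TEAD3 to TEAD1 shifted by 0.81, but FD2M1 monoiPSCs at passage 15 were at 0.07 over the neoSF mean, close to the neoSF libraries. With 1 library left out, the mean shift was 2.58 to 3.06 for TEAD4 against TEAD1 and 1.84 to 2.06 for TEAD4 against TEAD3.

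**Figure D2:**
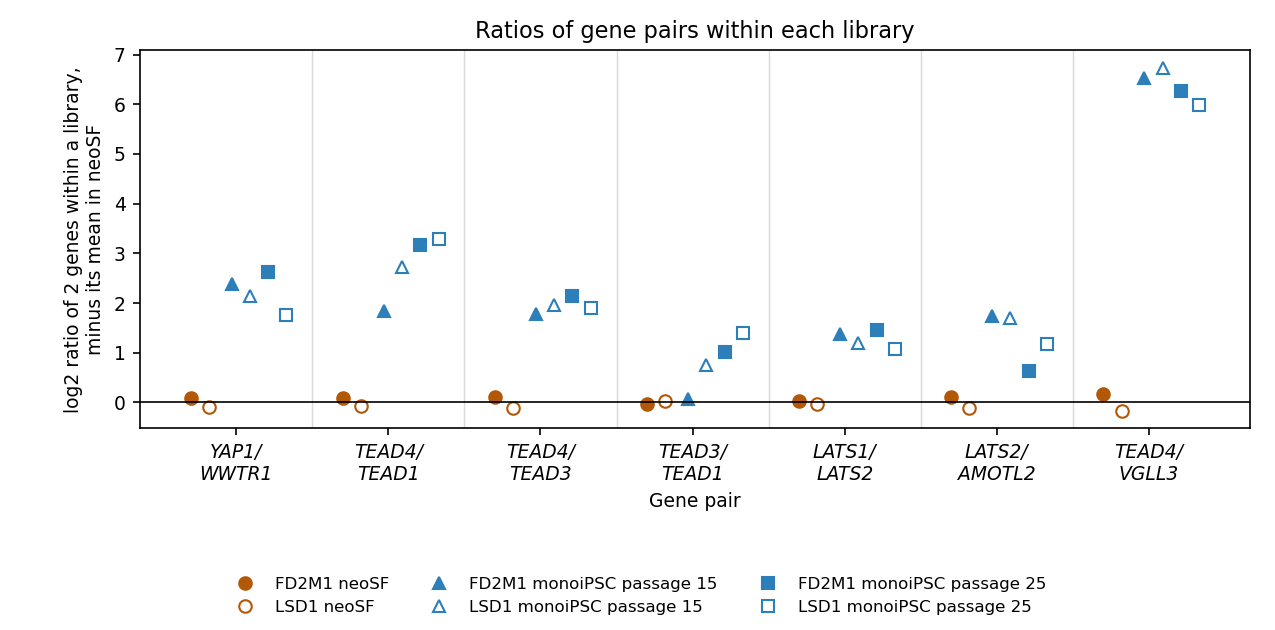
log2 ratio of the NRC of 2 genes within a library, minus the mean of that ratio in neoSFs, for 7 gene pairs chosen after the values were seen (symbols as in the plot of NRC by library). The neoSF libraries lie near 0, and the monoiPSC libraries lie above them in 6 pairs, by 1.28 to 6.38 on average, while TEAD3/TEAD1 has 1 monoiPSC library near the neoSFs.

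LATS1 and LATS2, the kinases that phosphorylate YAP1 and TAZ, were both lower in monoiPSCs, but by unequal amounts. LATS2 (gene 100018709, chromosome 4) had an NRC of 12103 and 11774 in neoSFs and of 2541, 2812, 2241 and 2825 in monoiPSCs. The groups were far apart, with little spread within each. LATS2 fell 4.29-fold (log2 fold change -2.10, SE 0.15, edgeR adjusted p = 4.1e-05). LATS1 (gene 100026943, chromosome 2) had an NRC of 2527 and 2345 in neoSFs and of 1348, 1318, 1260.2 and 1218 in monoiPSCs. Its libraries were close together within each group and the groups did not overlap. LATS1 was 1.77-fold lower (log2 fold change -0.83, SE 0.13, edgeR adjusted p = 0.0011), which is not DE, and with total count scaling its value of -0.30 missed the threshold at an edgeR adjusted p of 0.0779. The log2 ratio of LATS1 to LATS2 exceeded its neoSF mean by 1.38, 1.20, 1.46 and 1.08 in the monoiPSC libraries, a mean shift of 1.28 or 2.43-fold.

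The largest falls among the 9 genes were those of AMOTL2 and VGLL3. AMOTL2 (gene 100022998, chromosome 4) encodes an angiomotin-like protein that binds YAP1 in the cytoplasm and at cell junctions, and its gene is itself a known YAP and TEAD target, as is LATS2. Its NRC was 10397 and 11747 in neoSFs and 701, 805, 1336 and 1153 in monoiPSCs. The passage 25 libraries of both lines were above the passage 15 libraries, and all 4 were far below the neoSFs. AMOTL2 fell 10.4-fold (log2 fold change -3.38, SE 0.26, edgeR adjusted p = 6.0e-05).

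VGLL3 (gene 100030183, chromosome 7) encodes a vestigial-like cofactor that binds TEAD factors at a surface also used by YAP1 and TAZ. Its NRC was 5249 and 6002 in neoSFs and 97.7, 98.3, 156 and 224 in monoiPSCs. LSD1 monoiPSCs at passage 25 were the highest of the monoiPSC libraries, at a small share of the neoSF level. VGLL3 fell 36.6-fold (log2 fold change -5.19, SE 0.35, edgeR adjusted p = 3.5e-05), and without LSD1 monoiPSCs at passage 25 its log2 fold change was -5.51. The relative VGLL4, another TEAD cofactor, had a log2 fold change of -0.14 (edgeR adjusted p = 0.534) with an NRC of 2440.2 and 2768 in neoSFs and of 1867 to 2768 in monoiPSCs, so its groups overlapped. VGLL2, a relative known from skeletal muscle and named here after its values were seen, was listed at an NRC of 0 and 1.58 in neoSFs and of 36.6, 55.4, 19.4 and 222 in monoiPSCs. It missed the filter on low values and was not tested. Its highest library was again LSD1 at passage 25, and the part of the muscle RNA there in the VGLL2 and VGLL3 values was not tested.

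**Figure D3:**
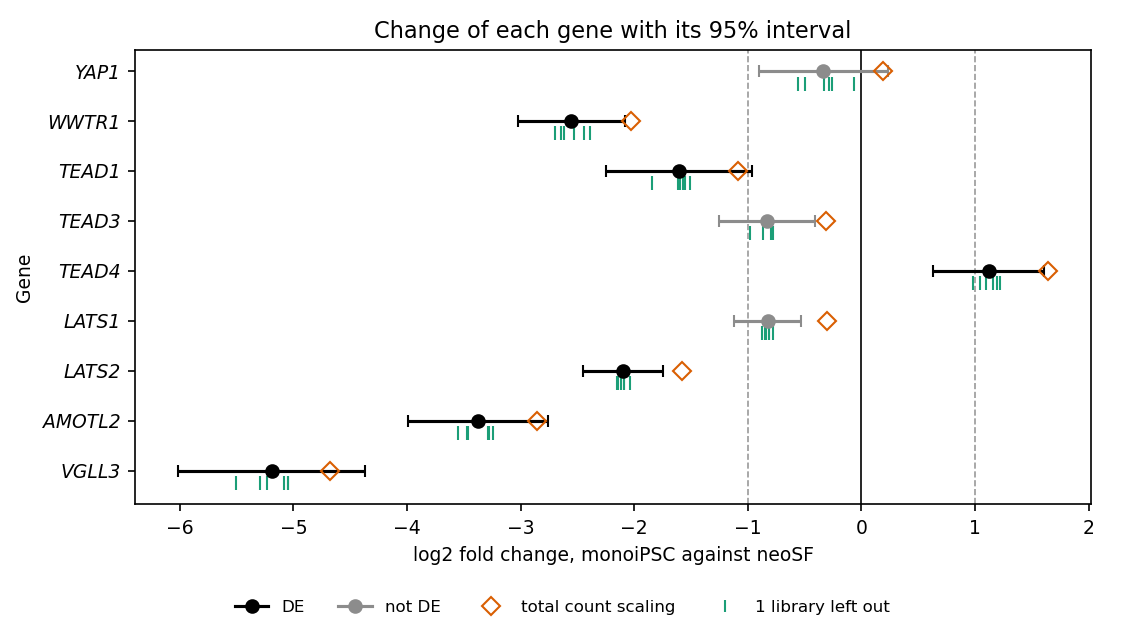
log2 fold change of each gene in monoiPSCs against neoSFs with its 95% interval, for DE genes (black) and others (grey), with the value under total count scaling (diamonds) and with each library left out (ticks). Dashed lines mark 2-fold. Total count scaling moves every gene to the right, and YAP1 is the gene that it carries across 0, to 0.19.

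All 9 genes had the same sign in each of the 4 comparisons of a monoiPSC library with the neoSFs of its own strain, as did 79.5% of all genes tested. Whether the change differed between strains was tested as the interaction of strain and cell type. None of the 9 genes was called, with edgeR adjusted p between 0.90 and 1.00, and none had an unadjusted p under 0.05. Of all genes, 0.0841% were called and 9.13% had an unadjusted p under 0.05. The intervals were wide, from -0.62 to 0.72 on the log2 scale for LATS1 and from -1.59 to 1.88 for VGLL3, and a strain difference of more than 2-fold lay within the intervals of WWTR1, TEAD1, TEAD3, TEAD4, AMOTL2 and VGLL3. DESeq2 called 304 genes in this comparison, none of them among the 9.

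Within the monoiPSCs, none of the 9 genes passed the test for passage or for strain. When passage 25 was set against passage 15 in a fit with a strain term, edgeR called none of 12252 genes (0.0%) at a Benjamini-Hochberg adjusted p of 0.05, while 9.35% had an unadjusted p under 0.05. DESeq2 called 140 genes, again none of the 9. At an unadjusted p under 0.05 were AMOTL2, VGLL3 and TEAD4, all higher at passage 25 in both lines. The log2 difference was 0.71 for AMOTL2 (edgeR adjusted p = 0.374), 0.92 for VGLL3 (edgeR adjusted p = 0.497) and 0.41 for TEAD4 (edgeR adjusted p = 0.509). The other 6 genes had log2 differences from -0.53 to 0.26. Between the LSD1 and FD2M1 lines, edgeR called none of 12252 genes (0.0%), with 14.2% at an unadjusted p under 0.05, and DESeq2 called 284, none of the 9. YAP1 was the 1 gene of the 9 at an unadjusted p under 0.05, with a log2 difference of -0.44 in LSD1 against FD2M1 (edgeR adjusted p = 0.281).

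The wider pathway was described through lists. The core of the cascade around LATS1 and LATS2 holds the MST kinases STK3 and STK4, their partner SAV1 and the MOB1 adaptors. The list also includes the TAO and MAP4K kinases, STK38 and STK38L. Of 14 genes tested, 4 were DE and lower (28.6%, beside 21.6% of all genes tested), 10 were not DE, and none was DE and higher (24.3% of all genes). Their median log2 fold change was -0.41. MOB1A, an adaptor that activates LATS, fell 5.01-fold from an NRC of 4627 and 5542 to between 812 and 1172 (edgeR adjusted p = 6.9e-05). Its paralog MOB1B had a log2 fold change of -0.41 (edgeR adjusted p = 0.0949). TAOK3 fell 3.60-fold, from an NRC of 503 and 569 to 129 to 162 (edgeR adjusted p = 0.00028). TAOK1 and MAP4K1 were the other lower genes, and MAP4K1 lost its call without the LSD1 neoSFs (-0.99) or LSD1 monoiPSCs at passage 15 (-0.94). STK4 had a log2 fold change of -0.23, SAV1 of 0.01 and STK3, which the table lists by a LOC number, of -0.40, with edgeR adjusted p between 0.215 and 0.979.

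Of 21 upstream and junction regulators tested, 5 were DE and higher (23.8%, beside 24.3% of all genes tested), 6 DE and lower (28.6%, beside 21.6%) and 10 not DE, and the list median was a log2 fold change of -0.32. The genes that rose include cell polarity and junction genes. PATJ, a scaffold of tight junctions, had 0 and 2 counts in neoSFs and an NRC of 343, 239, 334 and 314 in monoiPSCs (edgeR adjusted p = 8.0e-05). WWC1, also called KIBRA, an activator of LATS at the cell cortex, rose 44.4-fold from an NRC of 24.1 and 9.50 to 594, 579, 780.2 and 728 (edgeR adjusted p = 4.5e-05), and 74.3-fold without the FD2M1 neoSFs. The others were MPP5 (also called PALS1, a partner of PATJ), LLGL1 and LIMD1. The genes that fell include FAT1 and FAT4, large cadherins, and PTPN14, a phosphatase that binds YAP1. FAT1 fell 10.6-fold, from an NRC of 46764 and 23257 to 2801 to 3557 (edgeR adjusted p = 6.3e-05). PTPN14 fell 8.5-fold, from an NRC of 1208 and 1149 to 113 to 152 (edgeR adjusted p = 2.4e-05). FRMD6, AJUBA and RASSF1 were the other lower genes, and the RASSF1 call was lost in 5 of 6 fits that left out 1 library, the exception being LSD1 monoiPSCs at passage 25. AMOT, the angiomotin that names the family of AMOTL2, had a log2 fold change of 0.01 (edgeR adjusted p = 0.982), and AMOTL1 of -0.50 (edgeR adjusted p = 0.0363, under 2-fold). With total count scaling the signs of STK3, STK4, MOB1B, AMOTL1 and VGLL4 turned, without a DE call.

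STRIPAK is a phosphatase complex that removes phosphate from the MST kinases. Of 11 of its genes tested, 3 were DE and higher, 2 DE and lower and 6 not DE, so that 45.5% were DE beside 45.9% of all genes tested, and the list median was a log2 fold change of 0.27. FGFR1OP2 rose 19.2-fold, from an NRC of 121 and 124 to 2156, 2257, 2275 and 2123 (edgeR adjusted p = 7.8e-06), and the libraries within each group were almost equal. The striatin scaffolds moved in opposite directions. STRN4 rose 2.35-fold (log2 fold change 1.23, edgeR adjusted p = 0.0008) and STRN fell 3.56-fold (-1.83, edgeR adjusted p = 5.7e-05). SLMAP, which links the complex to MST kinases, fell 2.30-fold (log2 fold change -1.20, edgeR adjusted p = 0.00076), but without the FD2M1 neoSFs it was -0.91 and under 2-fold, while the catalytic subunit gene PPP2CA then passed 2-fold (1.01 in place of 0.93).

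Of 20 partners and competitors of YAP with a row, 16 were tested, 1 was DE and higher, 2 were DE and lower and 13 were not DE, so that 18.8% were DE beside 45.9% of all genes tested, and the list median was a log2 fold change of -0.18. RUNX2 fell 26.9-fold, from an NRC of 1443 and 1313 to 37.0 to 64.5 (edgeR adjusted p = 1.5e-05). RUNX1 fell 9.96-fold, from an NRC of 2214 and 1267 to 95.7 to 238 (edgeR adjusted p = 0.00028). Both are transcription factors of mesenchymal and blood lineages that can bind YAP1 or TAZ. YWHAE, one of the 14-3-3 proteins, which hold phosphorylated YAP1 in the cytoplasm, rose 2.16-fold (log2 fold change 1.11, edgeR adjusted p = 0.0016), and without the LSD1 neoSFs it was 0.96 and under 2-fold. The other 14-3-3 genes tested were not DE, although YWHAG passed 2-fold without the LSD1 neoSFs (-1.04, edgeR adjusted p = 0.0127).

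Genes known as targets of YAP and TEAD in other mammals were the pathway list with a larger share of DE genes than the 4 lists above. Of 21 tested, 16 were DE and lower (76.2%, beside 21.6% of all genes tested), 3 DE and higher (14.3%, beside 24.3%) and 2 not DE, and the median log2 fold change was -2.75. The list includes AMOTL2 and LATS2, described above, and PTPN14. CTGF, a matricellular protein also called CCN2, fell 113-fold, from an NRC of 220976 and 133667 to 637, 822, 1977 and 2453 (edgeR adjusted p = 0.0001). CCDC80, a secreted matrix protein, fell 212-fold, from an NRC of 82964 and 117046 to 356 to 569 (edgeR adjusted p = 7.8e-06). CYR61, also called CCN1 and named for its standing as a target, fell 29.3-fold, from an NRC of 40295 and 25332 to 466, 568, 1563 and 1597 (edgeR adjusted p = 0.00028). Several of these genes are also abundant in fibroblasts, and the fibroblast markers given above fell in the same comparison, and the list median was a log2 fold change of -5.50 over 11 genes. Their part in the target result was not tested.

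The targets that rose were GADD45A, a stress and growth arrest gene, FJX1 and IGFBP3. GADD45A rose 3.52-fold, from an NRC of 278 and 744 to 1434, 1252, 1742 and 2357 (edgeR adjusted p = 0.0086), and 6.52-fold without the LSD1 neoSFs. FJX1, related to a Golgi kinase that acts on FAT cadherins in the fly, rose 2.88-fold, from an NRC of 448 and 490.3 to 1013 to 1582 (edgeR adjusted p = 0.00078). IGFBP3 had an NRC of 17861 and 5255 in neoSFs and of 20537 to 33658 in monoiPSCs, and its call (edgeR adjusted p = 0.046) was lost when any library but the FD2M1 neoSFs was left out. NUAK2, among the lower genes, kept its call without the FD2M1 neoSFs or FD2M1 monoiPSCs at passage 25 and lost it without any of the other 4 libraries, with a log2 fold change of -0.20 without the LSD1 neoSFs. With these changes, the count of lower targets was 15 or 16 and that of higher targets 2 or 3 when 1 library was left out. RBMS3 and ANKRD1 were not DE. ANKRD1 had an NRC of 1418 and 383 in neoSFs and of 31.4, 157, 82.4 and 1029 in monoiPSCs, so LSD1 at passage 25 reached the neoSF range, and without that library its log2 fold change went from -1.37 to -3.23 (edgeR adjusted p = 0.0116).

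**Figure D4:**
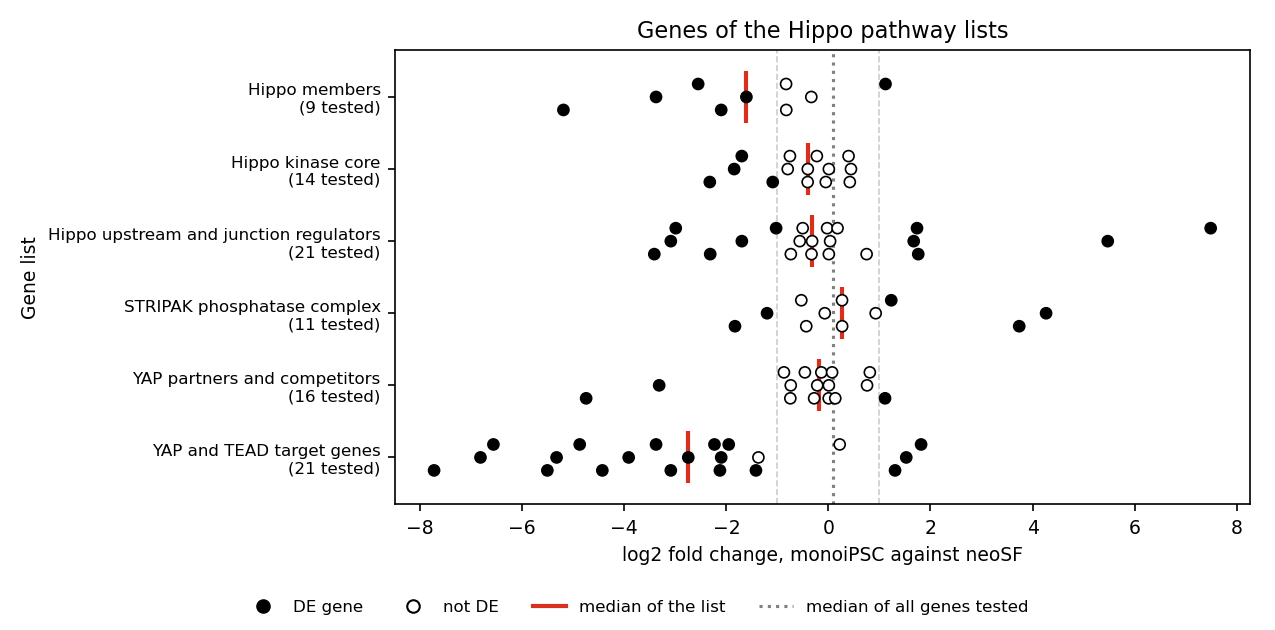
log2 fold change in monoiPSCs against neoSFs of every tested gene of the 9 genes and of 5 lists of the pathway, with DE genes filled, the median of each list in red and the median of all genes tested as a dotted line at 0.08. The target genes have the lowest median, -2.75, while the medians of the other 4 lists lie between -0.41 and 0.27.

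Within the monoiPSCs none of the targets passed edgeR's adjusted threshold for passage, and some had large differences of 1 direction in both lines. CTGF had an NRC of 637 and 822 at passage 15 and of 1977 and 2453 at passage 25, a log2 difference of 1.59 (edgeR adjusted p = 0.100). CYR61 differed by 1.60 (edgeR adjusted p = 0.100), from 466 and 568 to 1563 and 1597. Neither passed edgeR's adjusted threshold, while DESeq2 called both, with adjusted p of 9.2e-09 for CTGF and 1.3e-07 for CYR61 on the same 4 libraries. ANKRD1 had a log2 difference of 2.10 (edgeR adjusted p = 0.204 and DESeq2 adjusted p = 7.7e-05). Of 19 targets tested in this comparison, 10 were higher and 9 lower at passage 25, with a median log2 difference of 0.06. Of all 12252 genes tested, 5939 were higher and 6313 lower, and 9.35% had an unadjusted edgeR p under 0.05. Among the targets, 8 had an unadjusted edgeR p under 0.05. These were CTGF, CYR61, ANKRD1, AMOTL2, NUAK2 and GADD45A, all higher, and TGFB2 and RBMS3, both lower. The summed NRC of the fibroblast markers was 18220 and 13216 at passage 15 and 14762 and 13872 at passage 25, lower at passage 25 in FD2M1 and slightly higher in LSD1. The residual spread in this comparison rests on 4 libraries with strain and passage as terms.

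**Figure D5:**
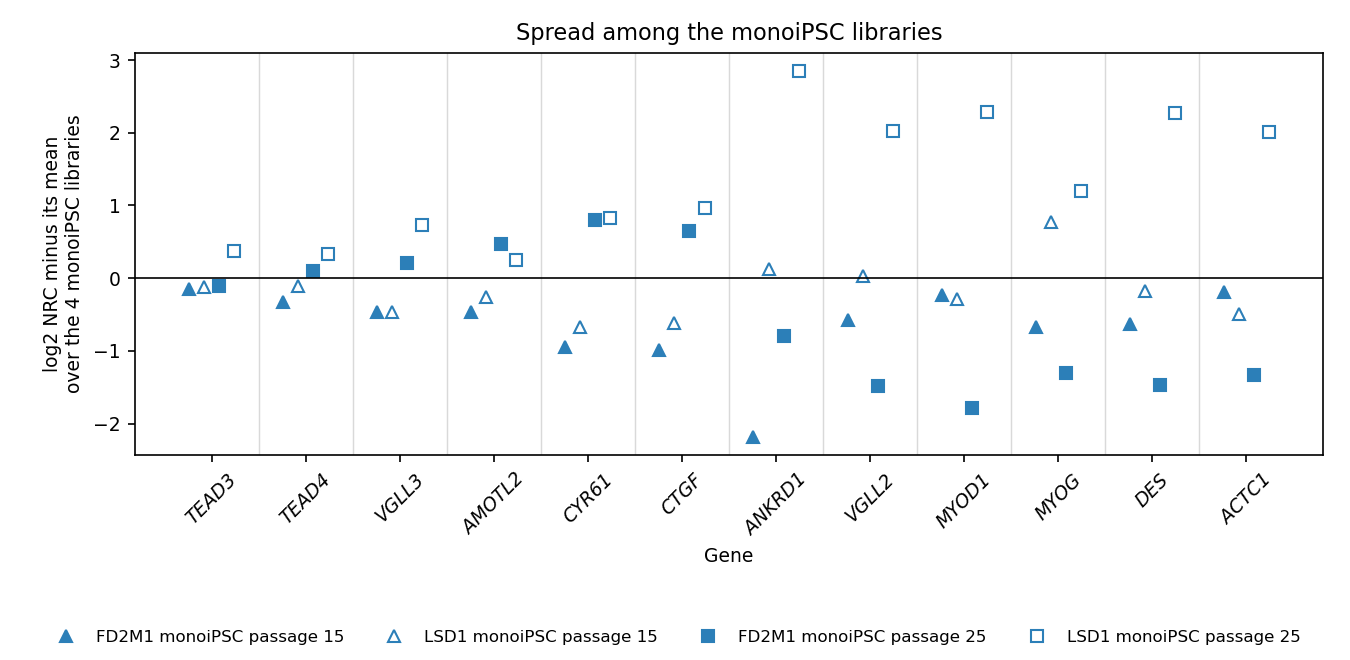
log2 NRC of Hippo genes, targets, VGLL2 and skeletal muscle genes in the 4 monoiPSC libraries, each minus its mean over these libraries (filled symbols for FD2M1, open for LSD1, triangles for passage 15, squares for passage 25). AMOTL2, CYR61 and CTGF are higher at passage 25 in both lines, while ANKRD1, VGLL2, MYOD1, DES and ACTC1 have LSD1 at passage 25 far above the rest.

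The muscle genes that set LSD1 at passage 25 apart from the other monoiPSCs were MYOD1, a regulator of myogenesis, and DES and ACTC1, which encode desmin and cardiac actin. DES had an NRC of 563, 769, 315 and 4213 in the monoiPSC libraries and ACTC1 of 1391, 1131, 630.4 and 6418. MYOG, another regulator of myogenesis, had an NRC of 1527, 4135, 985 and 5549, so both LSD1 libraries were above both FD2M1 libraries. The same library was the highest of the monoiPSCs for TEAD3, TEAD4, VGLL3, VGLL2 and ANKRD1, and its part in these values beyond the fits without it was not tested.

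Because TEAD4 is known from the trophectoderm, genes of that lineage were read beside it. Of 8 genes with a row, 6 were tested, 1 was DE and higher, 4 were DE and lower and 1 was not DE (24.3% of all genes tested were DE and higher and 21.6% DE and lower), and the list median was a log2 fold change of -3.24. The gene that rose was CDX2, a homeobox factor of the trophectoderm and of the posterior embryo, with 2 and 0 counts in neoSFs and an NRC of 3928, 2662, 3991 and 1124 in monoiPSCs (edgeR adjusted p = 0.00014). GATA2 fell from an NRC of 577 and 324 to 89.2, 16.8, 38.9 and 18.5 (edgeR adjusted p = 0.0036) and PTGES from 675 and 343 to 40.5 to 52.3 (edgeR adjusted p = 0.00012). GATA3 and KRT18 were the other lower genes, and KRT18 lost its call without the LSD1 neoSFs (-1.06, edgeR adjusted p = 0.150), while TFAP2C, not DE at 0.77, then gained one (1.69, edgeR adjusted p = 0.017). EOMES was at an NRC of 0 in 3 monoiPSC libraries and of 1.03 in the last, and the estimated count of ELF5 rounded to 0 in every library.

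The pattern of YAP1 and TEAD4 over the 6 libraries was compared with that of 11382 other tested genes with a symbol, as the root mean square difference of log2 values centred on their mean. Nearest to YAP1 were BCCIP (0.070), PAIP2B (0.071) and UBAP2L (0.084). Nearest to TEAD4 were RHEB (0.061), B9D2 (0.079) and NDUFS7 (0.081). With 6 libraries in 2 groups, such a list mainly orders genes by the size of the difference between the groups.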

How the data were processed

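RNA-seq of both neoSF and all 4 monoiPSC libraries was analysed. The authors aligned reads to the MonDom5 assembly with StrandNGS, filtered them by quality and multiple mapping, and counted them on RefSeq genes. They deposited raw counts, of which 85.3% of values above 0 were not whole (tolerance 0.001), so these were treated as estimated counts and rounded for testing. A second deposited table holds log2 values that the authors made by DESeq normalization, from which the NRC was taken as 2 to the power of the value, with a log2 of 0 read as an NRC of 0. Whether counting used strand was not given in the sources used here, so reads of a gene and of an antisense partner cannot be told apart.

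Genes that reached an NRC of 20 in each library of at least 1 cell type were tested with edgeR 4.0.16 (R 4.3.3, TMM, quasi-likelihood F-test, no block). DE genes had a p no higher than 0.05 after Benjamini-Hochberg adjustment over all genes tested, and a 2-fold or larger change. The standard error is the log2 fold change divided by the square root of F. The interaction of strain and cell type, and the passage and strain comparisons within monoiPSCs, were called at the adjusted p alone. DESeq2 1.42.0, limma 3.58.1, other scalings and filters, a strain block and leaving out each library were the alternatives. The scripts were tested on simulated data.

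The members and lists were chosen with earlier results of these data known. From each list, the 2 highest and 2 lowest DE genes whose higher group averaged an NRC of 100 or more are named with values, as are the 3 genes most like YAP1 and TEAD4. Other genes named, the 7 gene pairs and the target counts under alternatives were chosen after values were seen. Strain names pair each monoiPSC line with the neoSFs it was made from. The deviations of same-strain libraries from their group means had a Pearson r of 0.04 over 13072 genes. Levels per transcript length were planned but not computed, because no transcript lengths were used here, so levels are not compared between genes. Symbols without a row, such as TEAD2, were not analysed here.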

Additional observations from a re-analysis of the deposited data

Results flagged for a closer look

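TEAD3 was singled out for 1 library. In the monoiPSCs, LSD1 at passage 25 had an NRC of 2451 and the other libraries 1699, 1742 and 1762, so the gap to the nearest library was 0.917 of the whole range, above Dixon's 95% critical value for 4 samples. Chance marks about 1 in 20 groups, and 9 genes were examined. The summed NRC of skeletal muscle markers was the highest of the monoiPSCs in this library, at 17536 against 2055 to 6522, and was 17649 and 21814 in the neoSFs, and its part in the TEAD3 value was not tested. Without this library TEAD3 had a log2 fold change of -0.99 against neoSFs, in place of -0.83.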

How the results depend on the processing

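Of 117 log2 fold changes of the 9 genes under 13 alternatives, 115 kept their direction and their DE call. With scaling by total count, YAP1 turned from -0.33 to 0.19, neither past the threshold, the adjusted p of TEAD3 and LATS1 rose above 0.05 (0.152 and 0.0779), and 4786 genes in place of 3176 were DE and higher; the shift of the median of all genes to 0.61 is what this scaling changes. TEAD4 fell under 2-fold without LSD1 monoiPSCs at passage 25 (0.99), so leaving out 1 library gave 0 to 1 genes of the 9 higher. DESeq2 called more genes than edgeR for the interaction of strain and cell type (304 against 11), for passage (140 against 0) and for strain (284 against 0), and the cause was not tested. The difference of mean log2 levels of LATS1 moved from -0.92 on the deposited log2 values to -0.82 on log2 TMM-scaled CPM with a pseudocount of 1. With strain as a replicate block, 3186 genes were DE and higher and 2826 lower, and 1 and 5 of the 9 genes, so the block changed no call among them. With this block 15 targets in place of 16 were lower, NUAK2 being lost. Total count scaling left 14 lower targets, without ASAP1 and NUAK2, and limma on the deposited log2 values left 15. With relative log expression (RLE) scaling 2 targets in place of 3 were higher, IGFBP3 being lost (edgeR adjusted p = 0.055). The target counts and the pair ratios with libraries left out were chosen after seeing the data. Leaving out libraries was not run for passage and strain within monoiPSCs, because no residual degrees of freedom remain. Shallower neoSF libraries limit what can be said of VGLL2, PATJ and CDX2, which had 2 or fewer counts there. Counting limits cover counting error only.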

Other observations

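In the interaction of strain and cell type, F3, which encodes tissue factor and is among the targets, had an NRC of 4559.8 and 13396 in the FD2M1 and LSD1 neoSFs and of 303, 148, 183 and 106 in the monoiPSCs. DESeq2 gave a log2 difference between strains of -2.48 with an adjusted p of 0.00098, and edgeR did not call it. ANKRD1 differed between the LSD1 and FD2M1 monoiPSCs by 3.02 on the log2 scale (edgeR adjusted p = 0.130 and DESeq2 adjusted p = 1.1e-10). Other listed genes were also called by DESeq2 and not by edgeR. In the interaction, IGFBP3 had a log2 difference of 1.82 (DESeq2 adjusted p = 0.031). Between the LSD1 and FD2M1 monoiPSCs, CDX2 differed by -1.19 (DESeq2 adjusted p = 0.0036) and RASSF1 by 0.96 (DESeq2 adjusted p = 0.0063). For passage 25 against passage 15, KRT18 differed by 1.30 (DESeq2 adjusted p = 0.00015).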
